A study of Mus musculus with 2 samples.

Results

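The genes described here encode the subunits of the proteasome in sorted mouse bone marrow LSK cells (negative for lineage markers, positive for Sca1 and c-Kit). Members were all genes whose symbol starts with Psma, Psmb, Psmc or Psmd followed by a digit, without the immunoproteasome genes Psmb8, Psmb9 and Psmb10. This gave 37 of the 31053 genes counted, on 16 chromosomes. Of these, 31 encode core subunits of the 26S proteasome, 14 of the 20S core and 17 of the 19S cap. The other members are the 19S assembly chaperones Psmd5, Psmd9 and Psmd10, the tissue-restricted 20S genes Psma8 and Psmb11, and Psmc3ip, a cofactor of meiotic recombination that has the prefix but is no proteasome subunit. The rule itself uses gene symbols only.

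There were 2 single-cell RNA-seq libraries, each of LSK cells sorted by flow cytometry on Lineage, Sca1 and c-Kit with a viability dye from C57BL/6J mice 6 to 8 weeks old. The control library came from mice with no irradiation stated, and the irradiated library from mice taken on day 15 after a total body dose of 5.0 Gy. How many mice went into each library is not given in the sources used here. With 1 library per condition there is no replicate error, no test was possible, and every difference below is between these libraries. The LSK gate holds haematopoietic stem cells and multipotent progenitors. Marker lists of stem, lymphoid, myeloid, erythroid and megakaryocyte priming each had counts in both libraries, and no marker of these lists was at 0 in both.

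The 26S proteasome is the protease that degrades proteins tagged with ubiquitin. Its 20S barrel has outer rings of alpha subunits, which gate the channel, and inner rings of beta subunits, of which Psmb5, Psmb6 and Psmb7 carry the active sites. The 19S cap has a base, whose ATPases unfold the substrate, and a lid, which removes the ubiquitin chain. Subunit genes are known to be transcribed in concert, in part through Nfe2l1 (NRF1) and Nfe2l2 (NRF2), factors that bind the antioxidant response element. In haematopoietic stem cells, low protein synthesis and tight control of protein quality are known features.

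Because nearly all members stood higher in the irradiated library, as described below, their promoters were searched for short motifs in the 250 bases before each RefSeq start (build GRCm38.p6). Of the 37 members, 30 had an entry. Both strands were read. The core of the antioxidant response element, TGACNNNGC, was found in 5 of 30 members (16.7%), against 11.5% of all genes with an entry and 14.7% of those at the minimum level used below. These 5 stretches are shown because they hold the letters of the element that NRF1 and NRF2 bind. They are written 5′ to 3′ on the gene's strand with the match in capitals:
Psmb5: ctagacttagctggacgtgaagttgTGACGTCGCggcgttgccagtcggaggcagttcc
Psmb6: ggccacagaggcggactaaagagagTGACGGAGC
Psmd9: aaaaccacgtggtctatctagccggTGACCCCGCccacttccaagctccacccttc
Psmc6: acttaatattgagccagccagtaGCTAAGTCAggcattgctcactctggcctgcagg
Psmd12: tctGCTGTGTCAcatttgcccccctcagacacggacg

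The Psmb5 stretch is chr14:54618009-54618067 on the minus strand, and its last 14 bases lie in the first exon of the gene, outside the coding sequence, in GENCODE M21. The stretches of Psmb6 (chr11:70525323-70525356), Psmc6 (chr14:45329574-45329630) and Psmd12 (chr11:107479278-107479314), all on the plus strand, lie upstream of the gene. The Psmd9 stretch, chr5:123228134-123228189 on the plus strand, lies in an intron of the longer GENCODE gene model, and its match overlaps a GC box (GGGCGG). In Psmc6 and Psmd12 the match is on the opposite strand.

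An ETS-type site, CCGGAAG, was found in 10 of 30 members (33.3%), against 7.83% of all genes and 19.4% of genes at the minimum level. The matches of 4 members that lie upstream of the gene in GENCODE are shown as examples, with the match in capitals:
Psmd11: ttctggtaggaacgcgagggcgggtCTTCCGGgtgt
Psmd2: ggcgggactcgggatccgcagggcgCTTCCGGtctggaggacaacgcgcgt
Psmc2: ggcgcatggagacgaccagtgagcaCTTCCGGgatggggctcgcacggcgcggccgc
Psmd4: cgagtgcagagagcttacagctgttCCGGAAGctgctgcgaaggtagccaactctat

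In the first 3 the match is on the opposite strand. They lie at chr11:80428579-80428614, chr16:20651601-20651651 and chr5:21785166-21785222 on the plus strand, and at chr3:95042708-95042764 on the minus strand. None of these 4 matches overlapped another motif searched. The GC box was found in 56.7% of members and 66.0% of genes at the minimum level, the CCAAT box (CCAAT) in 43.3% and 40.4%, and the TATA box (TATAAA) in 10.0% and 7.39%. A match describes the letters only, and members with and without a match differed little in their median ratio of irradiated over control level. The median log2 ratio was 0.40 for the 5 members with the antioxidant core and 0.42 for the 24 measured members without it, and 0.41 and 0.42 for the 10 with and the 19 without the ETS-type site.

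In the irradiated library the core subunits stood higher as a group. Summed over all members, the level was 5251 counts per 1000000 UMIs (CPM; UMIs are unique molecular identifiers, 1 per counted transcript molecule) in the control library and 7059 CPM in the irradiated library. That is 1.34-fold, a log2 ratio of 0.43 with a 95% counting interval of 0.42 to 0.43. These sums rest on 725263 and 1148802 UMIs, and the intervals, which cover counting error only, do not overlap. Here a gene is measured when its mean level over the libraries is at least 20 CPM, and it is called higher or lower when one library's CPM exceeds the other's by at least 25%. Of the 35 measured members 30 were higher, where 21.2% of all 5247 measured genes were, and 0 were lower, where 20.4% were. No member reached a 2-fold difference, which 3.49% of genes did in either direction.

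The direction was nearly uniform: 34 of 35 measured members had a ratio above 1, against 52.4% of measured genes. Their median log2 ratio was 0.42 (range -0.06 to 0.61), and that of all measured genes was 0.02, with 90% of genes between -0.73 and 0.61. Members are well-expressed genes, and such genes stood higher too. For genes averaging 100 CPM or more, a limit chosen after seeing the data, the median was 0.15 and 31.8% were called higher, as were 23 of the 26 members there. All 26 had a ratio above 1, where 68.3% of such genes did.

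**Figure D1:**
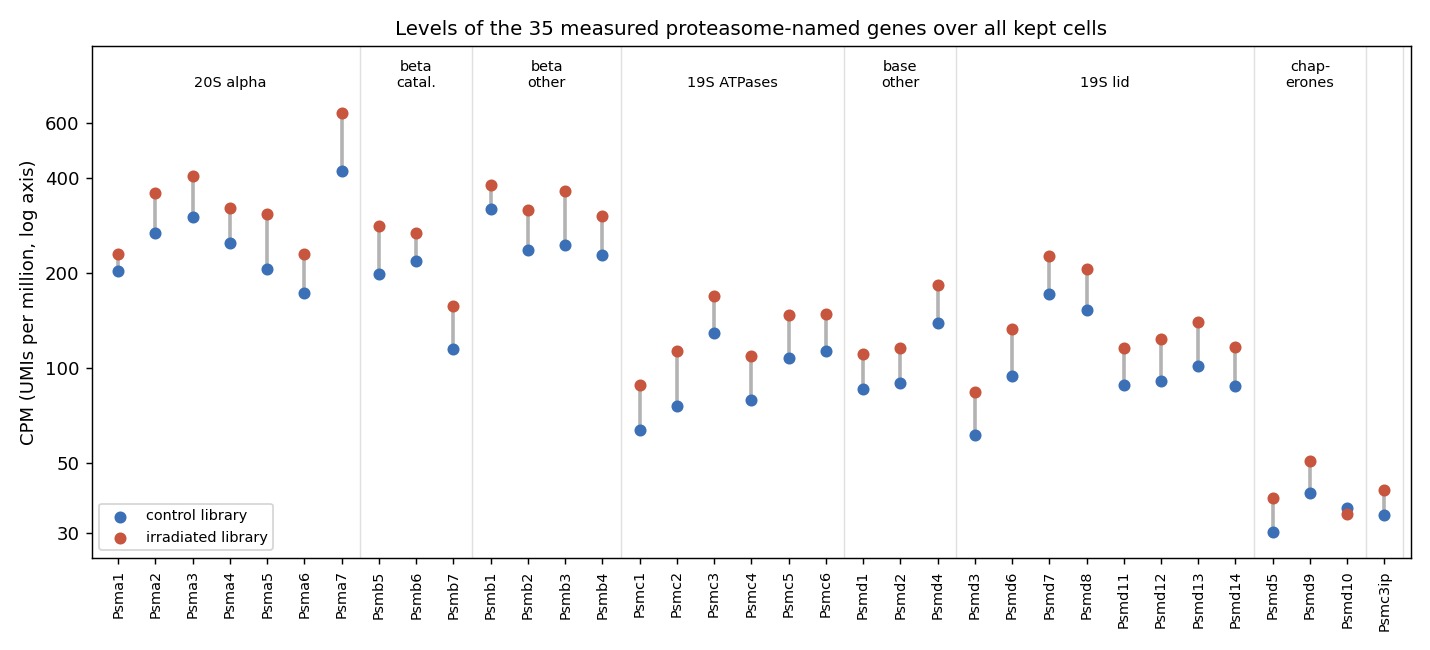
Level of each measured member in the control library (blue) and the irradiated library (red) over all kept cells, in CPM on a log axis, grouped by role. Of the 35 genes, 34 lie higher in the irradiated library, and the gap is widest for Psma7 (420 and 642 CPM).

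The class make-up of the gate differed between the libraries, and members differ in level between classes. The ratio was therefore also computed with the class mix held fixed, each class or cluster weighted by its mean share of both libraries. All of them entered, also those with under 100 cells in a library, such as neutrophil-primed-like (61 control cells) and erythroid-primed-like cells (43 control cells). Summed members then stood at 5416 and 6336 CPM, 1.17-fold (log2 ratio 0.23). Only 4 of 35 members, Psma5 (0.35), Psma7 (0.33), Psmb7 (0.33) and Psmd8 (0.32), were still called higher, where 5.25% of genes did, and 0 were lower, where 7.64% were. The shared direction stayed: 34 of 35 members had a ratio above 1, against 51.6% of genes, with a median log2 ratio of 0.21 beside 0.01 for all genes.

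The alpha subunits Psma1 to Psma7 form the outer rings of the 20S barrel. Together they stood at 1820 CPM in the control and 2492 CPM in the irradiated library (1.37-fold), and 6 of 7 were higher, with a median log2 ratio of 0.42. Each count by role, here and below, is to be read beside the 21.2% of all measured genes that were called higher. Psma7 had the highest level of all members, 420 and 642 CPM, and the highest ratio, a log2 of 0.61 (0.60 to 0.63). Psma5 stood at 206 and 307 CPM (log2 ratio 0.58), Psma3 at 302 and 406 CPM, and Psma2 at 268 and 358 CPM. Psma1 was the exception of the ring, at 203 and 229 CPM (log2 ratio 0.17), short of the call. Psma4 and Psma6 lay within the range of the others.

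The catalytic beta subunits together stood at 531 and 708 CPM (1.33-fold). Psmb5 (chromosome 14, 54614119 to 54618022, minus strand), which carries the chymotrypsin-like site and is the main target of bortezomib, had 198 CPM in the control and 282.5 CPM in the irradiated library (log2 ratio 0.51, 0.49 to 0.54). Psmb7 (chromosome 2, 38588036 to 38644087, minus strand), with the trypsin-like site, stood at 115 and 158 CPM (0.46). Psmb6 (chromosome 11, 70525367 to 70527858, plus strand), with the caspase-like site, stood at 218 and 268 CPM, and its log2 ratio of 0.29 was below the call. So 2 of the 3 active-site genes were called higher, and all 3 leaned the same way.

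Of the 4 other beta subunits, which complete the inner rings, 3 were higher, and their sum was 1029 and 1363 CPM (1.32-fold). Psmb3 stood at 245 and 365 CPM (log2 ratio 0.57). Psmb1 was among the highest in level, at 320 and 379 CPM, and missed the call with a log2 ratio of 0.25. Psmb2 and Psmb4 were both called higher.

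All 6 ATPases of the 19S base (Psmc1 to Psmc6), the ring that unfolds substrates, were called higher. Their log2 ratios ran from 0.38 to 0.58, and their sum was 568 and 775 CPM (1.36-fold). Psmc2 had the second highest ratio of all members, at 75.5 and 113 CPM (0.58, interval 0.55 to 0.61). The non-ATPase base subunits Psmd1 and Psmd2, which are large scaffolds, and Psmd4, a ubiquitin receptor, were also all higher, with log2 ratios between 0.37 and 0.39.

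All 8 lid genes among the members were higher: Psmd3, Psmd6, Psmd7, Psmd8, Psmd11, Psmd12, Psmd13 and Psmd14. Psmd14 encodes the deubiquitinase that cuts the chain off. The ratios of the 8 genes spanned log2 0.39 to 0.50, a narrow range, and their sum was 847 and 1144 CPM (1.35-fold). The small lid subunit Sem1 lacks the prefix and is described with the related genes below. Over all roles, 28 of the 31 core subunits among the members were called higher, where 21.2% of all measured genes were. Calls left with the class mix held fixed were 2 of 7 alpha subunits, 1 of 3 catalytic and 0 of 4 other beta subunits. In the 19S cap they were 0 of 6 ATPases, 0 of 3 other base subunits and 1 of 8 lid genes.

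The assembly chaperones of the 19S base, which leave the particle once it is built, differed from the core in level and among themselves. Psmd5 stood at 30.1 and 38.6 CPM (log2 ratio 0.36) and Psmd9 at 40.02 and 50.6 CPM (0.34), both called higher. Psmd10 (gankyrin; chromosome X, 140948429 to 140956728, minus strand) had 36.0 and 34.5 CPM (log2 ratio -0.06, -0.12 to -0.01) and was the only measured member with a ratio below 1. With the class mix held fixed its log2 ratio was 0.00.

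Psmc3ip stood at 34.1 and 40.9 CPM (log2 ratio 0.26), and at -0.06 with the class mix held fixed. Psma8, known from the testis, stood at 2.85 and 3.61 CPM, below the minimum level. For Psmb11, the thymus-specific beta subunit, 1 UMI was counted in the control library and its level was 0.01 CPM in both libraries, at which no ratio can be given.

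The order of the members by level was nearly the same in the libraries: across the 35 measured genes Spearman's rho between control and irradiated levels was 0.99 (genes are not independent replicates). Since the 3′ assay counts 1 tag per transcript, CPM is not divided by transcript length when genes are compared. The highest measured member exceeded the lowest 13.9-fold in the control and 18.6-fold in the irradiated library. Psma7, Psma3, Psmb1, Psma2 and Psmb3, all of the 20S barrel, had the highest levels.

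**Figure D2:**
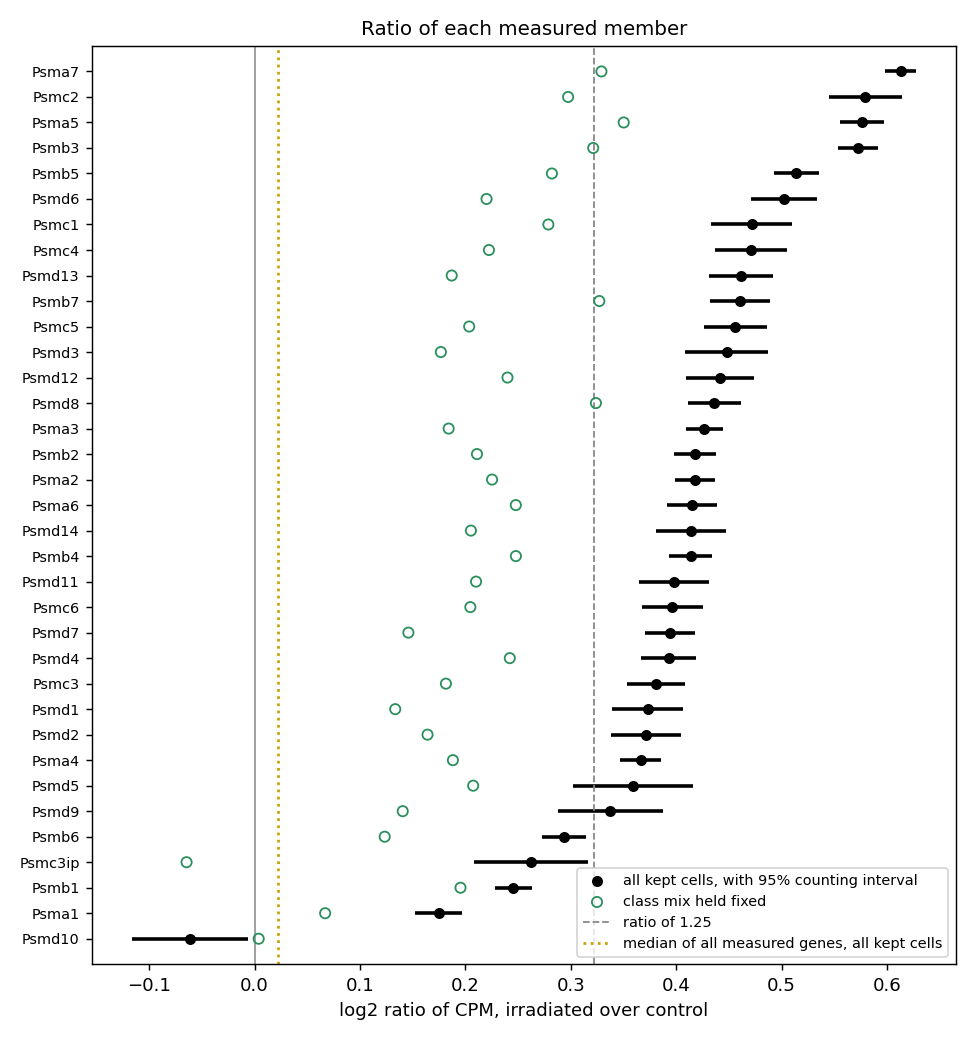
Log2 ratio of irradiated over control CPM for each measured member, over all kept cells (black, with 95% counting intervals) and with the class mix held fixed (green circles). The black points run from -0.06 for Psmd10 to 0.61 for Psma7, and the dashed line marks the 25% difference used for calls.

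Pooled over all classes, the distribution of member UMIs per cell stood higher in the irradiated library. Each cell was thinned to 5000 UMIs, which left out 66 control and 59 irradiated cells with fewer. The median cell then held 24 member UMIs in the control library (5th to 95th percentile 14 to 37) and 33 in the irradiated library (19 to 49). The distributions overlap widely, and 0 cells in either library lacked member UMIs. These percentiles pool classes whose shares differed between the libraries. Within classes the 5th percentile was 12 and 13 in HSC-like cells and 16 and 20 in lymphoid-primed-like cells. It was 24.15 and 24 in monocyte-primed-like cells and 18 and 17 in megakaryocyte-primed-like cells. For each measured member, the 10 cells with most UMIs held at most 1.5% of its irradiated UMIs, so the sums were not carried by a few cells.

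Cells were clustered without the member genes and named by marker genes. In both libraries the HSC-like class stood low. Its summed member level was 4235 CPM in the control and 4744 CPM in the irradiated library, 1.12-fold (log2 ratio 0.16, 0.14 to 0.19). Among the named classes with at least 100 cells, the HSC-like class had the lowest level for 33 of 35 members in the control library (5 classes) and for 34 of 35 in the irradiated library (6 classes). Among these classes Psmd10 had its highest level there in both libraries, 37.8 and 45.1 CPM, though unnamed clusters 1, 5 and 10 stood above that in the control library (39.9, 40.5 and 47.0 CPM). The counts of lowest members also leave out unnamed clusters. Cluster 5 (658 and 86 cells) stood below the HSC-like class in sum, at 3942 and 4513 CPM. Over all 10 classes and clusters with at least 100 control cells, most members were lowest in cluster 5 in the control library.

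The lymphoid-primed-like class stood at 5375 and 6610 CPM, and the megakaryocyte-primed-like class at 5461 and 6071 CPM. Myeloid-primed classes were at the top. The monocyte-primed-like class stood at 7147 and 7542 CPM, and the neutrophil-primed-like class, with 61 control cells, at 7098 and 8108 CPM. In the irradiated library 25 of 35 members were highest in the neutrophil-primed-like class, 7 in the erythroid-primed-like class (Psmb4, Psmc2, Psmd3, Psmd4, Psmd5, Psmd7 and Psmd9) and 2, Psma7 and Psmd8, in the monocyte-primed-like class. In the control library 17 members were highest in monocyte-primed-like and 17 in B lineage-like cells. These counts cover named classes with at least 100 cells in that library, so neutrophil-primed-like cells were not ranked in control. The top classes therefore cannot be compared between the libraries. Unnamed clusters were left out too, though some of them stood above every named class ranked. In the irradiated library this held in cluster 9 for Psmd8 (223 CPM), Psma1 (266 CPM) and Psmb7 (174.5 CPM), and in cluster 4 for Psmc3ip (49.6 CPM). In the control library it held in cluster 10 for Psmd5 (39.0 CPM) and in cluster 4 for Psmc3ip (51.0 CPM). Depth differed between these classes. The median was 11159 and 12643 UMIs in HSC-like cells, and 43458.5 and 43945 in monocyte-primed-like cells.

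Psmb5 serves as an example of the common pattern. Its control level was 145 CPM in HSC-like, 203 in lymphoid-primed-like, 220 in megakaryocyte-primed-like, 243 in B lineage-like and 279 in monocyte-primed-like cells. Its irradiated level was 178 CPM in HSC-like, 226 in megakaryocyte-primed-like, 250.1 in erythroid-primed-like, 257 in lymphoid-primed-like, 294 in monocyte-primed-like and 351 in neutrophil-primed-like cells. Psmb1 varied least, from 346 CPM in HSC-like to 393 CPM in neutrophil-primed-like cells of the irradiated library, 1.14-fold between extremes. Over all classes and clusters with at least 100 cells, the median member varied 1.85-fold in control (10 classes or clusters) and 1.73-fold in irradiated cells (11). For the median measured gene the same values were 1.97 and 1.92.

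**Figure D3:**
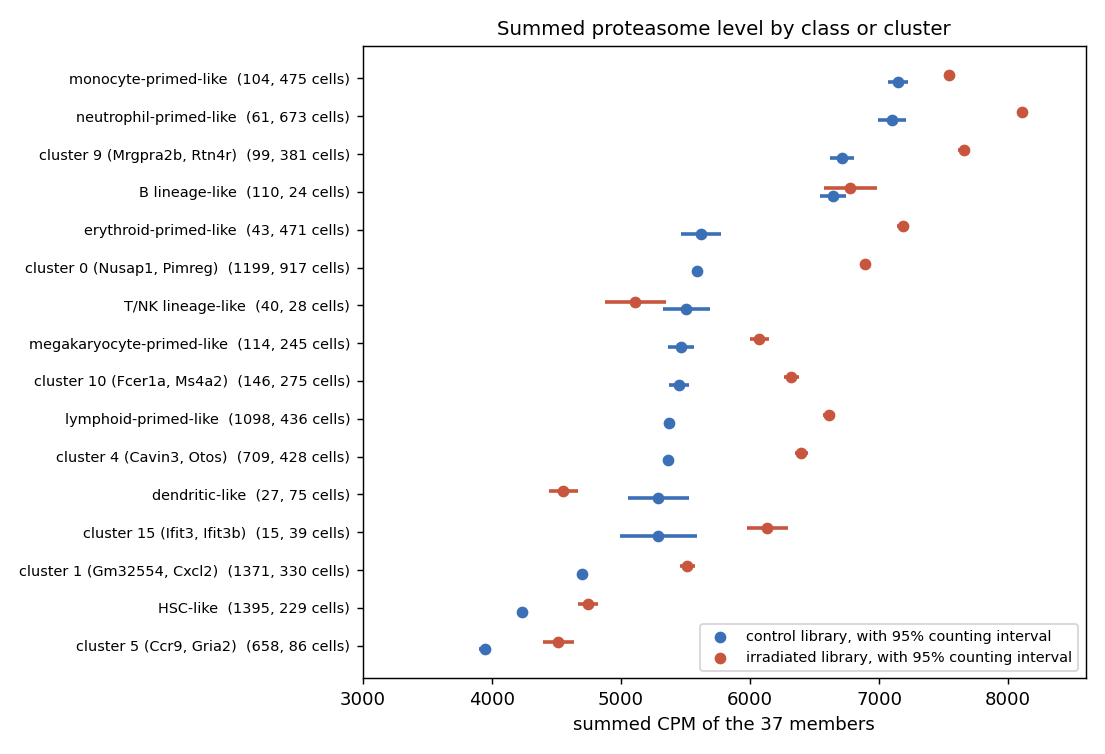
Summed CPM of the 37 members in each class or cluster (control blue, irradiated red, bars 95% counting intervals; the axis starts at 3000; cell numbers as control, irradiated). Cluster 5 lies lowest in both libraries (3942 and 4513 CPM), neutrophil-primed-like cells highest in the irradiated library (8108 CPM) and monocyte-primed-like cells highest in the control library (7147 CPM), and the irradiated point lies right of the control point except in dendritic-like and T/NK lineage-like cells.

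Within each class and cluster compared, the members stood higher in the irradiated library by less than over all cells. In the HSC-like class (1395 control and 229 irradiated cells) 3 of 34 measured members were called higher, where 8.94% of genes were, and 0 were lower, yet 32 of 34 had a ratio above 1, against 52.3% of genes. The highest ratios were those of the lid subunit Psmd8, at 117 and 154 CPM (log2 ratio 0.40, 0.25 to 0.55), and of Psma5, at 168 and 211 CPM (0.33). The lowest were those of Psma3 (254 and 249 CPM) and the lid subunit Psmd7 (147 and 146 CPM), both with intervals that span 0. The share of HSC-like cells called in G1 was 86.7% and 87.8%. In S it was 12.1% and 9.05%, and in G2/M 1.16% and 3.17% (16 and 7 cells). The part of phase was not tested. The count of members called higher in this class ran from 1, with median-of-ratios scaling, to 19, with each cell named by its own markers, over 8 alternatives, with 0 lower in each. The log2 ratio of the sum was 0.33 with each cell named by its own markers.

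The lymphoid-primed-like class (1098 and 436 cells) stood 1.23-fold higher, and 14 of 35 members were called higher, where 10.7% of genes were. Psma5 stood at 210.1 and 290.3 CPM (log2 ratio 0.47) and the ATPase Psmc1 at 55.7 and 76.5 CPM (0.46). Psmd10 (34.2 and 31.7 CPM) and Psmc3ip (44.7 and 43.7 CPM) were lowest, both with intervals that span 0. In this class 33 of 35 members had a ratio above 1, where 54.5% of genes did. The count called higher ranged from 5 to 14 over 8 alternatives. Of these cells 26.1% of control and 16.1% of irradiated cells were called in G1, and the part of phase was not tested.

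In the monocyte-primed-like class (104 and 475 cells) the sum was 1.06-fold higher (log2 ratio 0.08, 0.06 to 0.10). Only Psmd9, at 40.9 and 51.9 CPM (0.34, 0.12 to 0.58), was called higher, where 5.99% of genes were, and 24 of 35 members had a ratio above 1, where 46.4% of genes did. Psma5 followed, at 282 and 336 CPM (0.25). The scaffold subunit Psmd1 was lowest, with 125 and 110.0 CPM (log2 ratio -0.18, -0.32 to -0.05, short of the call), followed by the lid subunit Psmd13 (171 and 161 CPM). With each cell thinned to 5000 UMIs, 5 members were higher and 3 lower in this class, and 18 of 35 had a ratio above 1. The count with a ratio above 1 was 21 with equal cell weights and 33 with 30 neighbours from all cells. The log2 ratio of the sum was 0.18 with 30 neighbours from all cells and 0.21 with each cell named by its own markers.

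In the megakaryocyte-primed-like class (114 and 245 cells) the sum was 1.11-fold higher (log2 ratio 0.15, 0.12 to 0.18). Here 3 of 35 members were called higher, where 8.79% of genes were, and 30 had a ratio above 1, where 45.1% did. Psmb7 led at 108 and 147 CPM (0.45) before Psmd5 at 25.7 and 34.2 CPM (0.41), the latter with an interval that spans 0. Psma1 (196 and 187 CPM) and Psmc3ip (42.6 and 40.5 CPM) were lowest. The count called higher ranged from 3 to 9 over 7 alternatives. The count with a ratio above 1 was 21 with thinned cells, 26 with equal cell weights and 33 with each cell named by its own markers. The log2 ratio of the sum was 0.09 with thinned cells, 0.10 with equal cell weights and 0.25 with each cell named by its own markers.

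The 4 unnamed clusters with at least 100 cells in each library gave like values. In cluster 0, led by the mitotic genes Nusap1 and Pimreg, the sum stood at 5592 and 6890 CPM (1.23-fold) and 13 of 35 members were higher (12.2% of genes). In cluster 1, led by Gm32554 and Cxcl2, it stood at 4701 and 5515 CPM, with 6 of 34 higher (9.89% of genes). In cluster 4, led by Cavin3 and Otos, it stood at 5361 and 6397 CPM, with 9 of 35 higher (7.92% of genes). In cluster 10, led by the mast cell genes Fcer1a and Ms4a2 with the megakaryocyte genes Pf4, Gp5 and Itga2b also in its top 10, it stood at 5451 and 6319 CPM, with 5 of 35 higher (9.78% of genes). A ratio above 1 was found for 34 of 35 members in cluster 0 (50.7% of genes), 32 of 34 in cluster 1 (50.9%), 34 of 35 in cluster 4 (49.5%) and 32 of 35 in cluster 10 (46.1%).

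As defined here, no member was called lower in any of the 8 classes and clusters compared. Over all genes the share called lower was 9.5% in HSC-like, 10.4% in lymphoid-primed-like, 8.66% in monocyte-primed-like and 15.7% in megakaryocyte-primed-like cells. It was 14.5% in cluster 0, 11.4% in cluster 1, 12.1% in cluster 4 and 17.5% in cluster 10.

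A different member led in each of these unnamed clusters, while Psmd10 or Psmc3ip was the lowest measured member in each. Psma7 led in cluster 0 (435 and 603 CPM, log2 ratio 0.47), Psma5 in cluster 1 (186 and 244 CPM, 0.39), and Psmc2 in cluster 4 (73.1 and 103 CPM, 0.49). In cluster 10 Psmd8 (163 and 219 CPM) and Psmc2 (76.4 and 102 CPM) both stood at 0.42. Among the members measured there, Psmd10 was lowest in clusters 0, 1 and 10. In cluster 10 its 47.0 and 38.1 CPM (log2 ratio -0.30, -0.58 to -0.02) were just short of the call. Psmd8 was second in cluster 0 (0.39), and Psmb7 was second in clusters 1 (0.38) and 4 (0.43). The second lowest were Psmc3ip in clusters 0 (0.04) and 10 (-0.17), Psmd7 in cluster 1 (-0.01) and Psmd5 in cluster 4 (0.08), where Psmc3ip was lowest (-0.04).

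**Figure D4:**
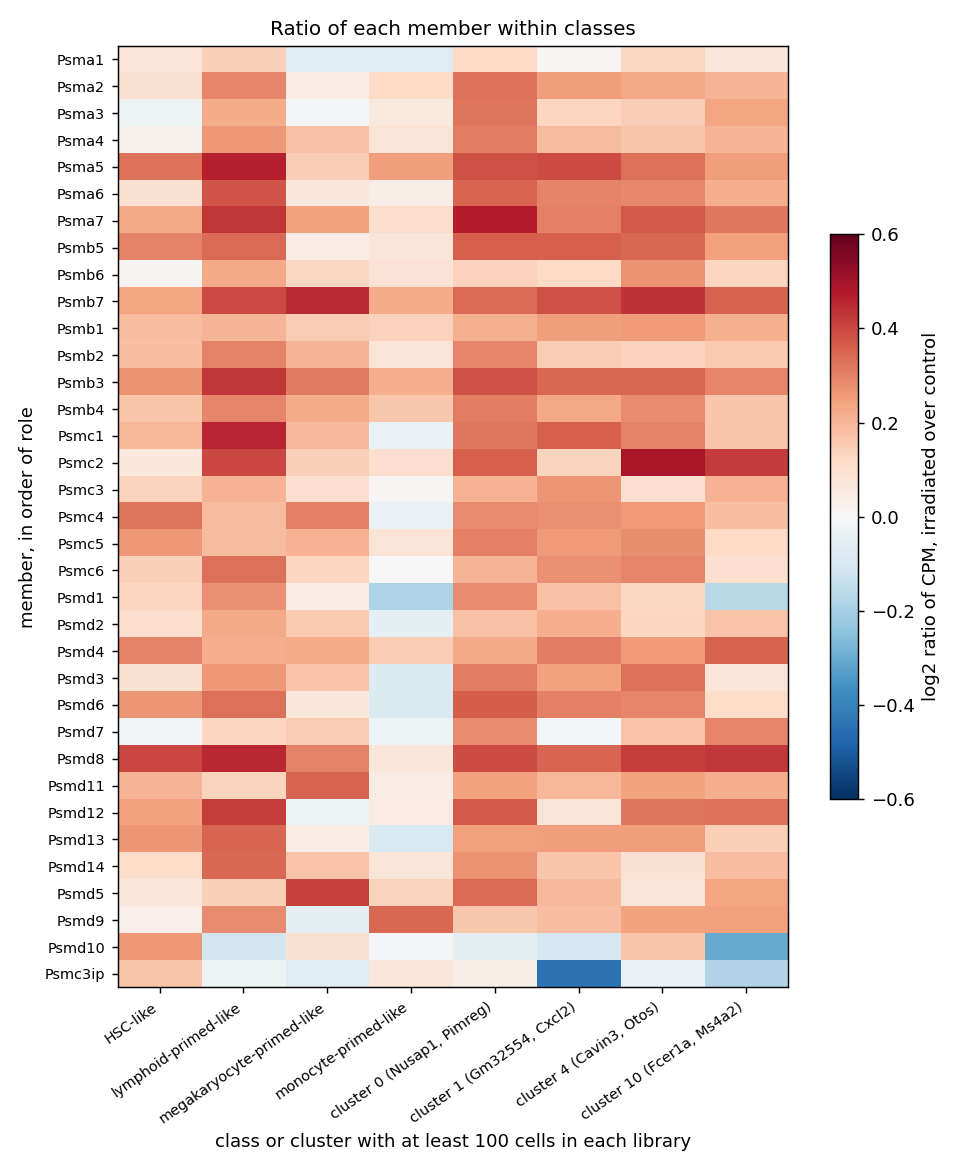
Log2 ratio of irradiated over control CPM (colour) of the 35 members that are measured over all cells (rows) in the 8 classes and clusters with at least 100 cells in each library (columns). Most fields are red, the monocyte-primed-like column is palest, and the Psmd10 row has several blue cells, down to -0.30 in cluster 10. Psmc3ip, below the minimum level in cluster 1, stands at -0.44 there.

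Classes with fewer than 100 cells in a library are given as values only. The sum was 5619 and 7186 CPM in erythroid-primed-like cells (43 and 471), 6644 and 6774 CPM in B lineage-like cells (110 and 24), and 3942 and 4513 CPM in cluster 5, led by Ccr9 and Gria2 (658 and 86 cells). It was 6709 and 7655 CPM in cluster 9, led by Mrgpra2b and Rtn4r (99 and 381 cells), and 5284 and 6134 CPM in cluster 15, led by the interferon-induced gene Ifit3 (15 and 39 cells). In dendritic-like cells (27 and 75) and T/NK lineage-like cells (40 and 28) the irradiated value was below the control value, at 5285 and 4553 CPM and at 5505 and 5111 CPM.

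Member levels differed by cell cycle phase, and the phases differed between the libraries. In G1 cells the sum was 4421 CPM for the control and 5340 CPM for the irradiated library (1.21-fold), in S cells 5431 and 7176 CPM (1.32-fold), and in G2/M cells 5795 and 7278 CPM (1.26-fold). Of the cells with a phase call, 44.8% of control and 18.1% of irradiated cells were in G1, and 21.3% and 43.3% in G2/M. So the irradiated library held more cells of the phases in which members stood high, and it also stood higher within each phase. Among members called higher, there were 10 of 34 in G1 (12.2% of genes), 26 of 35 in S (17.6%) and 19 of 35 in G2/M (16.5%), and 0 were lower in any phase, where 16%, 19.1% and 19.8% of genes were. With the phase mix held fixed, an alternative chosen after seeing the data, the log2 ratio of the sum was 0.34 and 20 of 35 members were higher.

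Within the control library the sum was 1.31-fold higher in G2/M than in G1 cells, and 34 of 35 members had a G2/M to G1 ratio above 1, with a median of 1.36 beside 1.02 for all genes. The same sum ratio was 1.36 in the irradiated library, also with 34 of 35 members above 1. The lid subunit Psmd13 had the highest G2/M to G1 ratio among core subunits, 66.6 CPM in G1 and 127 CPM in G2/M of the control library (1.90-fold). Psmb1 hardly varied, at 317 and 328 CPM, and Psmd10 stood at 39.3 and 37.2 CPM, the only ratio below 1. Psmc3ip had its peak in S phase, at 11.4 CPM in G1 and 51.5 CPM in S cells of the control library (4.53-fold), a pattern that sets it apart in value from the subunits. These phase values of Psmd13 and Psmb1 were chosen after their values were seen.

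The irradiated cells were deeper, with a median of 29615 UMIs against 16084 in control. From 5000 to 80000 UMIs the member share was higher in each deeper range, while the ranges at either end did not follow that order. The libraries were therefore set side by side in ranges of UMIs per cell. The sum was 4724 and 5343 CPM in cells with 10000 to 20000 UMIs (1.13-fold), 5524 and 6612 CPM with 20000 to 40000 (1.20-fold), and 6272 and 7896 CPM with 40000 to 80000 (1.26-fold). At the ends the sum was 4237 and 5961 CPM with 1000 to 5000 UMIs (66 and 59 cells), 4203 and 4869 CPM with 5000 to 10000, and 6040 and 7745 CPM above 80000 (16 and 37 cells). The irradiated value was the higher one in each of the 6 ranges. Within a range the phases still differed, with 8.66% of control and 19.9% of irradiated cells in G2/M at 10000 to 20000 UMIs, and 71.1% and 64.8% at 40000 to 80000. The part of depth and of phase in the difference was not tested further.

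**Figure D5:**
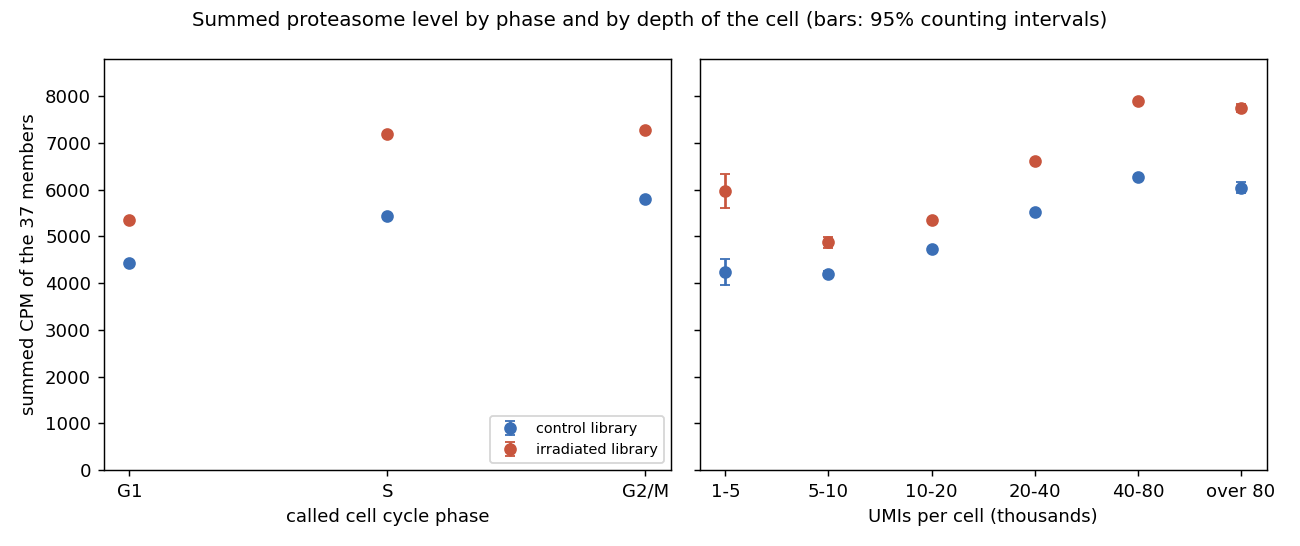
Summed CPM of the 37 members by called cell cycle phase (left) and by UMIs per cell (right), control in blue and irradiated in red, bars 95% counting intervals. The red point lies above the blue point in every phase and depth range, and both stand higher in G2/M (5795 and 7278 CPM) than in G1 (4421 and 5340 CPM).

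Related genes of the pathway were taken from lists fixed by function. The immunoproteasome subunits, which replace the catalytic ones in immune cells, resembled the members in direction. Psmb8 stood at 556 and 699 CPM (log2 ratio 0.33) and Psmb10 at 133 and 173 CPM (0.38), both higher, and Psmb9 at 250 and 285 CPM (0.19). With the class mix held fixed Psmb8 and Psmb10 (both 0.25) lost the call. In these LSK cells Psmb8 exceeded the standard Psmb5, which it replaces, in both libraries. Of the regulators, Psme2, a subunit of the PA28 activator, stood at 167 and 254 CPM (0.60). Psme3 had a log2 ratio of 0.46, Psme1 of 0.16 and the inhibitor Psmf1 of 0.15. So 2 of 3 immunoproteasome genes and 2 of 4 measured regulators were higher, where 21.2% of all genes were. With the class mix held fixed Psme2 (0.41) kept the call and Psme3 (0.20) lost it.

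The chaperones that assemble the 20S barrel were higher in 3 of 5 cases, where 21.2% of all genes were. Psmg3 (log2 ratio 0.51), Psmg1 (0.50) and Psmg2 (0.47) passed the call, while Psmg4 (0.13) and Pomp, at 316 and 357 CPM (0.18), did not. With the class mix held fixed Psmg1 (0.31), Psmg2 (0.21) and Psmg3 (0.20) all lost the call. Among other 26S components 5 of 7 were higher (21.2% of all genes), led by the small lid subunit Sem1 at 503 and 760 CPM (0.60), the ubiquitin receptor Adrm1 (0.54) and the deubiquitinase Usp14 (0.47). The ubiquitin ligase Ube3c (-0.14) and AI314180, the mouse counterpart of the proteasome adaptor ECM29 (-0.15), were lowest. With the class mix held fixed Sem1 (0.36) kept the call, and Adrm1 (0.29), Uchl5 (0.19), Usp14 (0.15) and Txnl1 (0.14) lost it.

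Of the 5 genes known to control subunit transcription, 0 were called higher, where 21.2% of all genes were, a share that a count over 5 genes cannot be told from. Nfe2l1 stood at 28.8 CPM in both libraries (log2 ratio 0.00), Nfe2l2 had a log2 ratio of -0.02 and Keap1, which restrains NRF2, of 0.00. The protease Ddi2, which cuts NRF1 into its active form, had a log2 ratio of -0.10, and Ngly1, which deglycosylates NRF1, stood at 25.8 and 18.8 CPM (-0.45) and was called lower, a call that ended with the class mix held fixed (-0.31). These are transcript levels, and activity of the proteins was not measured.

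Among 8 measured unfoldase and shuttle genes, Rad23b (0.39) was higher and Zfand5, at 142 and 88.2 CPM (-0.69), was lower, and the median was 0.15. Over all genes 21.2% were higher and 20.4% lower. With the class mix held fixed, that median was 0.01 and Rad23b (0.26) was no longer called. The same median with the mix held fixed was 0.25 for the immunoproteasome, 0.21 for the activators and inhibitor, 0.20 for the 20S chaperones, 0.15 for the other 26S components and -0.07 for the transcriptional regulators.

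Some facts of the libraries bear on all values. After filtering, 7189 control and 5112 irradiated cells with 138113621 and 162741683 UMIs remained, and 11 kept barcodes occurred in both libraries. HSC-like cells made up 19.4% of control and 4.48% of irradiated cells, neutrophil-primed-like cells 0.849% and 13.2%, and erythroid-primed-like cells 0.598% and 9.21%. Neutrophil-primed marker genes summed to 1604 and 6608 CPM and erythroid-primed markers to 56.5 and 322 CPM, with no marker of either list at 0 in both libraries. Of cells outside the gate, mature neutrophil markers summed to 341 and 42.6 CPM, macrophage markers to 4.08 and 5.09 CPM and endothelial or stromal markers to 16.2 and 5.03 CPM, with no marker of these 3 lists at 0 in both libraries. Their part in the difference was not tested.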

How the data were processed

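The authors deposited 10x Genomics matrices of raw UMI counts per gene and barcode for both libraries. Per the submitters' processing notes, reads were processed with Cell Ranger 2.1.1 on mm10, while the file headers give software version 3.1.0. Per the labels' protocols, libraries followed the single-cell 3′ method of 10x Genomics.

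Barcodes with at least 1000 UMIs, at least 500 genes and at most 10% mitochondrial UMIs were kept, which removed 496 of 7686 control and 468 of 5596 irradiated barcodes. Scrublet (expected rate 0.06) marked 1 and 16 cells (0.0139% and 0.312%), so it has not worked here. An alternative left out the 6% of cells with the highest scores. UMIs were summed over kept cells and divided by the library total (CPM). Intervals are exact Clopper-Pearson 95% intervals of the ratio given the gene's total, and cover counting error only. Cells were clustered with scanpy 1.11.5 and leidenalg 0.10.2 on 2000 variable genes (without members, cycle, ribosomal, mitochondrial and sex-linked genes), 30 components, 15 neighbours from each library and resolution 1. A cluster was named when at least 3 markers of a list were among its top 25 genes by fold and at least 3 were detected in 10% of its cells, with more of the list in the top 10 than of any other. The rule for names was chosen with the data in view, and other clusters carry a number and their leading genes. Phases were called with scanpy's cell cycle scoring after thinning cells to 5000 UMIs. Scripts were tested on simulated data.

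The members and lists were chosen with earlier results of these data known. The genes named with values are the 3 catalytic subunits, the 5 highest and 5 lowest in level and in ratio, the 2 highest and 2 lowest ratios in each compared class, members below the minimum, and up to 3 highest and 2 lowest ratios of each related list. Any other gene with a value was chosen after its value was seen. A further related list is not reported here. Alternatives covered scaling, cell filters, cell weights, doublets, minimum level, class mix and clustering. Annotation was GENCODE M21 and promoter sequences came from RefSeq.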

Additional observations from a re-analysis of the deposited data

Results flagged for a closer look

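The summed members stood higher in the irradiated library in most classes, with lower values in 2 small classes. The log2 ratio was -0.22 (-0.29 to -0.14) in dendritic-like cells (27 control and 75 irradiated cells) and -0.11 (-0.19 to -0.02) in T/NK lineage-like cells (40 and 28 cells), against 0.35 (0.31 to 0.40) in erythroid-primed-like cells (43 and 471 cells). Among single members, Psmd1, a scaffold of the 19S base, had a log2 ratio of 0.28 in cluster 0 and of -0.18 in monocyte-primed-like cells. Each of these intervals lies on its own side of 0. The differences between classes were not tested, since each class has 1 library per condition and the intervals cover counting error only. The share called in G1 was 50% of control and 65.2% of irradiated dendritic-like cells, 61.3% and 71.4% of T/NK lineage-like cells, and 25% and 15.9% of erythroid-primed-like cells. The part of phase in these values was not tested.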

How the results depend on the processing

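Over all cells, the log2 ratio of the summed members (0.43) was 0.40 with median-of-ratios scaling, 0.37 with ribosomal, mitochondrial and haemoglobin genes out of the totals, 0.41 with equal cell weights, 0.39 with at most 5% mitochondrial UMIs, 0.23 with the class mix fixed and 0.34 with the phase mix fixed. The count of members higher (30) was 4 with the class mix fixed and within 1.5 times of 30 under the other 12 alternatives, and the count lower was 0 under all 13. In HSC-like cells the count higher (3) was 1 with median-of-ratios scaling, 6 with equal weights, 11 at resolution 0.5, 5 with markers left out of clustering and 19 with each cell named by its own markers. In lymphoid-primed-like cells it (14) was 9 with median-of-ratios scaling, 5 with 30 neighbours from all cells and 7 with markers left out. In monocyte-primed-like cells it (1) was 0 with equal weights, 5 with thinned cells and 2 with 30 neighbours, and the count lower (0) was 3 with thinned cells. In megakaryocyte-primed-like cells it (3) was 6 with median-of-ratios scaling and 9 with own markers. The log2 ratio of the sum ran from 0.15 to 0.33 in HSC-like, 0.22 to 0.30 in lymphoid-primed-like, 0.06 to 0.21 in monocyte-primed-like and 0.09 to 0.25 in megakaryocyte-primed-like cells. With thinned cells, 28 of 34 members had a ratio above 1 in HSC-like and 32 of 35 in lymphoid-primed-like cells. The same counts were 18 of 35 in monocyte-primed-like and 21 of 35 in megakaryocyte-primed-like cells. The cause of these shifts was not tested. No value reversed. Some alternatives could not be run because a class was missing or had under 100 cells in a library: HSC-like and megakaryocyte-primed-like with 30 neighbours, lymphoid-, monocyte- and megakaryocyte-primed-like at resolution 0.5, and monocyte-primed-like with markers left out. No paired analysis was possible because each condition has 1 library, and leaving out a library was not possible for the same reason. The limit of 100 CPM and the fixed phase mix were chosen after seeing the data.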
